A study of Mus musculus with 4 samples.

Results

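The transcripts of 8 genes of hepatic fatty acid oxidation and of the PPAR-alpha response were followed in single nuclei of mouse liver. The genes were listed by name as Ppara, Cpt1a, Cpt2, Ehhadh, Acadm, Hadha, Pdk4 and Vnn1, and all 8 were found among the 54464 genes of the deposited count matrix. Single-nucleus RNA-Seq had been performed on liver from 3 mice labelled WT and 3 mice labelled HNKO, the hepatocyte-specific Nampt knockout. The HNKO mice were homozygous for a floxed Nampt allele and carried Alb-Cre, a Cre recombinase driven by the albumin promoter and therefore active in hepatocytes, whereas the WT mice were floxed littermates. All mice were female C57BL6/BomTac, 8 to 12 weeks old at the start, and fed a purified diet for 6 weeks. These mice came from a cohort in which part of the animals received nicotinamide riboside in the drinking water, and the sources used here do not give the water of these 6 mice. Nuclei of all mice were pooled and told apart by a hashtag, a barcoded antibody given to each mouse.

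The matrix held 5193 nuclei, of which 4410 belonged to the 13 clusters that the authors named as hepatocytes, and no nucleus barcode appeared more than once. Hepatocyte nuclei numbered 562 to 847 per mouse and held 3524497 to 6635290 unique molecular identifiers (UMIs, counts of single captured transcripts). All 6 hepatocyte markers (Alb, Apob, Ttr, Cps1, Apoa1 and Fga) had their highest level in hepatocyte nuclei. HNKO mouse 3 stood apart in a few measures. Its own hashtag made up 48.95% of its hashtag counts against 66.1% to 80.3% in the other mice, its hepatocyte markers summed to 9409 CPM (UMIs scaled to a common library total) in hepatocyte nuclei against 20929 to 27219, and its scaling factor was 1.28 against 0.917 to 1.01. Nampt, the targeted gene, was at 91.6, 108 and 103 CPM in hepatocytes of WT mice 1, 2 and 3 and at 91.7, 147 and 71.1 CPM in HNKO mice 1, 2 and 3. These counts did not separate the genotypes, and which exons were deleted is not given in the sources used here, so the genotypes below are those of the labels. Each mouse was taken as 1 replicate, and p-values measure the spread between these 6 mice.

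Fatty acids enter mitochondria as carnitine esters. CPT1A in the outer mitochondrial membrane makes the ester and is the main point of control, and CPT2 in the inner membrane turns it back into acyl-CoA. ACADM, the medium-chain acyl-CoA dehydrogenase, carries out the first step of each round of beta-oxidation, and HADHA is the alpha subunit of the trifunctional protein that carries out the later steps for long chains. EHHADH is the bifunctional enzyme of the peroxisomal pathway. PPAR-alpha, encoded by Ppara, is the nuclear receptor that binds DNA as a partner of RXR and activates these genes in the fasted liver. PDK4, the kinase that inhibits pyruvate dehydrogenase, and VNN1, a pantetheinase, are known targets of the receptor outside the oxidation pathway itself.

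Promoter sequence was examined because PPAR-alpha with RXR binds direct repeats of the core AGGTCA with 1 base between the 2 copies. RefSeq promoters (GRCm38.p6, 250 bases before to 50 bases after the gene start) were at hand for 7 of the 8 genes, Vnn1 being the exception. None of the 7 held the full repeat in these letters on either strand, and it was found in 0.0396% of all 32851 promoters. A single core on either strand was found in Cpt1a and Acadm and in 16.3% of all promoters. The windows below are those of the 3 members that differed along the lobule (Ppara, Cpt1a and Pdk4) and of Acadm, and capitals mark the core as read on the opposite strand.

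Cpt1a, chr19:3323181-3323300, plus strand: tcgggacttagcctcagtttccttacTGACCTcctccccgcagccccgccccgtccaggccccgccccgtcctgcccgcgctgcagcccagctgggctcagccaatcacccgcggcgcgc
Acadm, chr3:153944774-153944893, minus strand: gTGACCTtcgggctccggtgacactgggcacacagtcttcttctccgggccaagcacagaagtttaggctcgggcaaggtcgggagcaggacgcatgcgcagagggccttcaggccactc
Ppara, chr15:85735656-85735775, plus strand: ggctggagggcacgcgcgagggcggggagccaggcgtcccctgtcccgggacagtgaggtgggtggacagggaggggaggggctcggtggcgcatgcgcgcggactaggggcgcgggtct
Pdk4, chr6:5496279-5496398, minus strand: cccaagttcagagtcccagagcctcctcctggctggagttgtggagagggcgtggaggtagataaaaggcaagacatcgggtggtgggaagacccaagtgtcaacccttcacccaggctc

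The first base of the core lay 94 bases before the start of Cpt1a and 249 bases before the start of Acadm. The Ppara and Pdk4 windows, which are the 120 bases next to the start, held no copy. Starts here are those of the RefSeq promoters and differ from the GENCODE coordinates given below. The windows of Ppara and Cpt1a lie wholly, and that of Pdk4 partly, within those gene coordinates. A match is a description of the letters only.

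To determine whether the genotype affected the 8 genes in hepatocytes, UMIs were summed over the hepatocyte nuclei of each mouse, scaled by TMM (a scaling that sets the bulk of genes equal between libraries) and compared with the edgeR quasi-likelihood test. No member passed an FDR of 0.05, and neither did any of 11810 genes tested, so that the share of all genes called was 0.0%. No member had an unadjusted p under 0.05 with edgeR or with DESeq2, and 5.91% of all genes (698) had with edgeR. In none of the 8 genes were the mice of both genotypes apart, and this held for 11.6% of all genes. At shares of this size, finding no such gene among 8 does not set the members apart from other genes.

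Ppara (chromosome 15, 85734983 to 85802819, plus strand, coordinates from GENCODE M21 on GRCm38) was at 2412, 2673 and 2694 CPM in WT mice 1, 2 and 3 and at 2064, 2525 and 1896 CPM in HNKO mice 1, 2 and 3. With TMM, HNKO mice 1 and 3 lay below all WT mice and HNKO mouse 2 among them, whereas without TMM HNKO mouse 3 (2422 CPM) was also between the WT mice (2233 to 2589 CPM). The means were 2593 ± 157 and 2161 ± 326 CPM (SD, n = 3 each), with a log2 fold change of -0.26 (SE 0.26, 95% CI -0.87 to 0.34, edgeR FDR 0.85), which was -0.10 with library size as the sole scaling. Cpt1a (chromosome 19, 3322334 to 3385733, plus strand) was at 650, 800 and 537 CPM in the WT mice and at 564, 661 and 249 CPM in the HNKO mice. HNKO mouse 3 had by far the lowest level, and the other 2 HNKO mice lay within the WT range. The log2 fold change of Cpt1a was -0.43 (SE 0.37, 95% CI -1.28 to 0.41, edgeR FDR 0.85), and it was -0.11 without HNKO mouse 3. Cpt2 (chromosome 4, 107903981 to 107923610, minus strand) was at 17.5, 11.5 and 15.05 CPM in WT mice and 18.1, 15.9 and 19.1 CPM in HNKO mice. Here HNKO mice 1 and 3 lay above all WT mice, with a log2 fold change of 0.27 (95% CI -0.23 to 0.77, edgeR FDR 0.84; 0.46 with library size alone).

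Of the enzymes of the oxidation spirals, Acadm (chromosome 3, 153922357 to 153944632, minus strand) was at 102, 97.2 and 89.1 CPM in WT mice and 91.5, 86.6 and 68.5 CPM in HNKO mice. With TMM the ranges met through HNKO mouse 1, but without TMM all 3 HNKO mice (84.0 to 87.5 CPM) were between the lowest and the highest WT mouse (83.9 and 94.5 CPM). The TMM means of 96.1 ± 6.57 and 82.2 ± 12.1 CPM (SD, n = 3 each) gave a log2 fold change of -0.23 (SE 0.17, 95% CI -0.63 to 0.18, edgeR FDR 0.84), which was -0.07 with library size alone and -0.10 without HNKO mouse 3. Hadha (chromosome 5, 30118304 to 30155162, minus strand) was at 53.0, 68.0 and 49.7 CPM in WT mice and 40.8, 69.4 and 60.9 CPM in HNKO mice. The highest and the lowest Hadha level were both in HNKO mice, and the log2 fold change was 0.00 (SE 0.24, 95% CI -0.55 to 0.55, edgeR FDR 1.00). Hadha overlaps Garem2 on the opposite strand, which held 1 UMI in hepatocytes against 1737 for Hadha. Ehhadh (chromosome 16, 21761287 to 21787807, minus strand) was at 75.7, 35.5 and 24.8 CPM in WT mice and 24.6, 32.1 and 48.7 CPM in HNKO mice. WT mouse 1 alone was above every HNKO mouse. The log2 fold change of Ehhadh was -0.36 (SE 0.42, edgeR FDR 0.88), was -0.12 with library size alone and turned to 0.22 without WT mouse 1.

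The 2 targets outside the pathway varied most. Pdk4 (chromosome 6, 5483351 to 5496309, minus strand) was at 8.89, 16.7 and 5.25 CPM in WT mice and at 30.2, 15.9 and 7.55 CPM in HNKO mice. Only HNKO mouse 1 lay above the WT range. The log2 fold change of 0.79 (SE 0.56, 95% CI -0.50 to 2.09, edgeR FDR 0.83) was 0.18 without HNKO mouse 1 and 1.34 without WT mouse 2. Vnn1 (chromosome 10, 23894688 to 23905343, plus strand) was at 9.50, 16.7 and 4.54 CPM in WT mice and at 1.48, 10.4 and 7.40 CPM in HNKO mice. HNKO mouse 1, which had the highest Pdk4 level, had the lowest Vnn1 level, from 9 UMIs against 19 to 64 in the other mice. The log2 fold change of Vnn1 was -0.66 (SE 0.66, 95% CI -2.19 to 0.86, edgeR FDR 0.85), with -0.11 without WT mouse 2 and -1.18 without HNKO mouse 2.

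**Figure D1:**
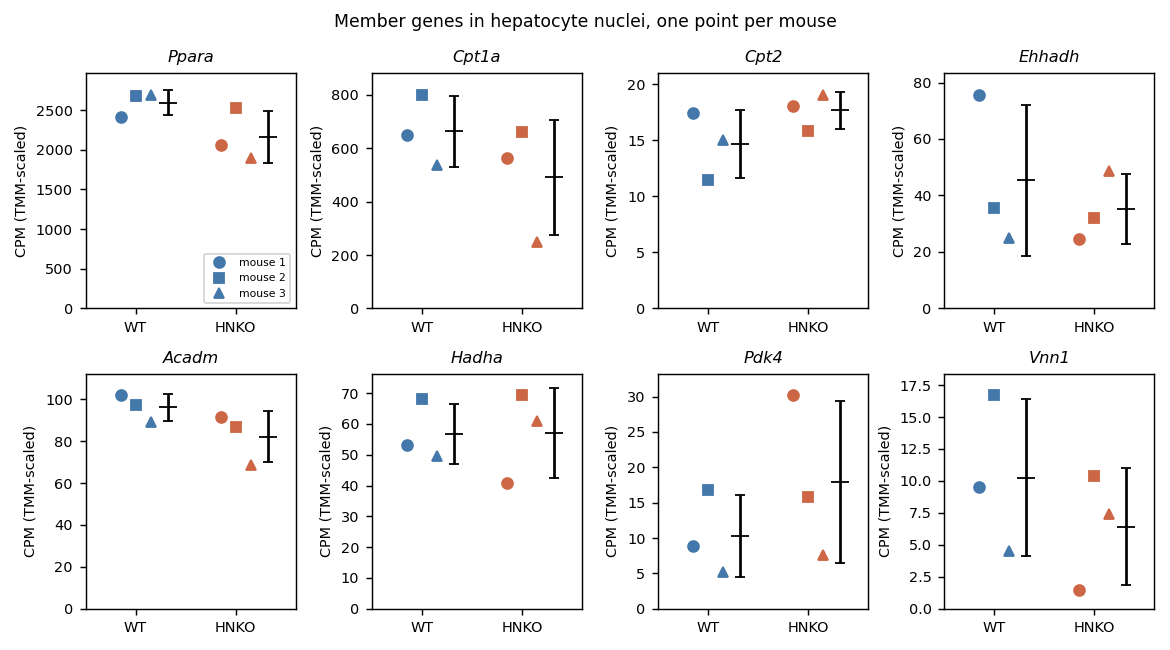
Level of each member in the hepatocyte nuclei of each mouse, in TMM-scaled CPM, with WT mice in blue and HNKO mice in orange and the mouse number given by the symbol. Bars show mean and SD (n = 3); in every panel the points of both genotypes overlap, and the single high Pdk4 point at 30.2 CPM is HNKO mouse 1.

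The spread between mice was larger than counting error for most members, but to different degrees. The coefficient of variation between mice was 6.05% in WT and 15.1% in HNKO mice for Ppara, against 0.943% from counting. For Acadm it was 6.83% and 14.8% against 4.86% from counting, so that the WT mice differed little more than their counts allow. Cpt2 varied by 20.5% and 9.29% against a counting error of 11.8%. For Pdk4 it was 57.0% and 64.2% against 14.7%, and for Vnn1 59.8% and 70.7% against 20.3%. The fitted variation between mice placed Vnn1 above 98.1%, Pdk4 above 95.7%, Ehhadh above 89.5% and Cpt1a above 84.6% of all genes tested, whereas Acadm and Cpt2 were above 20.3% and 21.2%.

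Within a mouse, the sparse Pdk4 and Vnn1 transcripts were held by few nuclei. In HNKO mouse 1, 184 Pdk4 UMIs came from 71 of 812 hepatocyte nuclei, the highest nucleus held 28, and the top 9 nuclei held 47.3% of the UMIs. In HNKO mouse 2, 96 UMIs came from 56 nuclei, with at most 10 in a nucleus. In the WT mice at most 6 Pdk4 UMIs were found in any nucleus. For Ppara, 5.66% to 7.93% of the UMIs of a mouse were in the top 1% of nuclei, and for Cpt1a 6.63% to 8.25%. This share was 42.7% to 77.3% for Pdk4, 34.9% to 100% for Vnn1 and 16.4% to 27.6% for Cpt2. Where UMIs are few, the top nuclei hold a large share by counting alone, and this was not corrected for. In HNKO mouse 1, the clusters named Central held 44.0% of the Pdk4 UMIs and 13.8% of all hepatocyte UMIs, at 88.4 CPM against 18.0 CPM in its other hepatocyte nuclei. Without the Central clusters, the log2 fold change of Pdk4 between genotypes was 0.53 (edgeR FDR 0.83).

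The 8 genes were then set beside a wider list of 80 genes of fatty acid oxidation and of PPAR-alpha targets, which included them, and 74 of these passed the count filter. None passed an FDR of 0.05 (edgeR). The median log2 fold change of the list was -0.25, with 51 genes below and 23 above 0, against a median of 0.02 and 47.6% below 0 over all genes tested. The sign of single small differences depended on scaling. With library size as the sole scaling, the median of all genes moved to 0.19 and that of the list to -0.06, with 43 of 74 list genes and 27.5% of all genes below 0. By role as listed, the numbers below 0 were 13 of 16 for mitochondrial beta-oxidation (8 with library size alone) and 11 of 13 for peroxisomal oxidation (9). They were 5 of 7 for the carnitine shuttle (5), 6 of 10 for the regulators (6) and 4 of 4 for omega-oxidation (4). For fatty acid uptake and activation they were 5 of 10 (4), for ketogenesis 1 of 4 (1) and for the other targets 6 of 10 (6). The 6 genes with too few counts were Cyp4a12a, Cyp4a12b, Fgf21, Acot1, Acot2 and Hilpda.

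Without adjustment, 4 list genes had p under 0.05 in the edgeR test, all lower in HNKO mice, where the share of all genes called lower in this way was 2.05% and the share called higher 3.86%. Cyp4a14 and Cyp4a10 encode fatty acid omega-hydroxylases. Cyp4a14 was at 168, 127 and 34.15 CPM in WT mice and 26.1, 57.5 and 10.4 CPM in HNKO mice (log2 fold change -1.81, SE 0.70, edgeR FDR 0.82). Cyp4a10 was at 37.7, 53.8 and 13.1 CPM against 5.75, 20.8 and 6.69 CPM (log2 fold change -1.65, SE 0.62, edgeR FDR 0.82). In both, WT mouse 3 lay within the HNKO range. Acad11, an acyl-CoA dehydrogenase, was at 275, 296 and 256 CPM in WT mice and at 200, 235 and 171 CPM in HNKO mice, with no overlap (log2 fold change -0.45, edgeR FDR 0.82). Hsd17b4, the other bifunctional enzyme of peroxisomes, which was singled out after its values were seen, was at 211, 219 and 231 CPM against 171, 165 and 124 CPM and did not overlap either (log2 fold change -0.53, edgeR FDR 0.82).

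The other genes with the largest differences of their role did not pass either. Among regulators, Ppargc1b, a coactivator, had a log2 fold change of -0.61 and Pparg, the adipose form of the receptor, of 0.57. Acsl1, which activates long-chain fatty acids, was at -0.82 and Slc27a2, a transporter and very long-chain acyl-CoA synthetase, at -0.73. Crot, the peroxisomal carnitine acyltransferase, was at -0.57 and Slc22a5, the carnitine transporter, at -0.49. Eci2, an enoyl-CoA isomerase, was at -0.70, from 726 to 767 CPM in WT mice and 628, 572 and 188 CPM in HNKO mice, the lowest in HNKO mouse 3. Scp2, a sterol carrier with a peroxisomal thiolase form, was at 0.72. Bdh1, the ketone body dehydrogenase, was at 0.41. Angptl4, an inhibitor of lipoprotein lipase, was at -0.97 and Cidec, a lipid droplet protein, at 0.83. Single mice carried much of these values. Without HNKO mouse 3, Angptl4 was at -0.46, Acsl1 at -0.47, Slc27a2 at -0.38, Crot at -0.30, Slc22a5 at -0.21, Eci2 at -0.32 and Bdh1 at -0.04. Without HNKO mouse 1, Scp2 was at 0.20. Without WT mouse 3, Ppargc1b was at -0.27, Pparg at 0.36 and Cidec at 0.47, whereas Crot was at -0.98. Crot, Acsl1 and Slc22a5 moved either way with the mouse left out. Without WT mouse 2, Crot was at -0.28, and without HNKO mouse 2, Acsl1 was at -1.35 and Slc22a5 at -0.80.

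Markers of other cells in the hepatocyte sums moved with single HNKO mice. The 5 stellate markers summed to 39.4 to 88.6 CPM in WT mice and to 194, 30.6 and 122 CPM in HNKO mice 1, 2 and 3. The 5 cholangiocyte markers summed to 301 to 337 CPM in WT mice and to 614, 294 and 496 CPM in the HNKO mice. Of the 5 cholangiocyte markers, 1 was at 0 in both genotypes, and no marker of the other lists was. The 5 endothelial markers summed to 29.2 to 37.1 CPM and 31.6 to 43.1 CPM. The part of these markers in the differences above was not tested.

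To determine how the genes varied along the liver lobule, the hepatocyte nuclei of each mouse were ranked by a score of 12 pericentral and 12 periportal genes, none of them on the wider list, and cut into 3 equal parts. UMIs were summed per mouse and part, and the pericentral and the periportal part were compared within mice. Of 8645 genes, 11.9% were called higher in pericentral nuclei and 9.01% higher in periportal nuclei (edgeR FDR under 0.05). Of the 8 members 3 were called, namely Ppara, Cpt1a and Pdk4, and all 3 were higher in pericentral nuclei.

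Ppara was at 3024, 3245 and 3306 CPM in pericentral nuclei of WT mice 1, 2 and 3 and at 1575, 1926 and 1988 CPM in their periportal nuclei, here as CPM without TMM. In HNKO mice 1, 2 and 3 it was at 2307, 3225 and 3221 CPM and at 1556, 2008 and 1880 CPM. Every pericentral value was above every periportal value, and the middle part lay between them in all 6 mice. The log2 difference was 0.82 (SE 0.06, 95% CI 0.70 to 0.94, edgeR FDR 1.97e-08), with 0.57 to 0.94 in single mice.

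Cpt1a was higher in pericentral nuclei in 6 of 6 mice, by a log2 of 0.41 (SE 0.08, 95% CI 0.25 to 0.57, edgeR FDR 7.39e-04). It was at 705, 868 and 578 CPM in pericentral and 510, 680 and 469 CPM in periportal nuclei of the WT mice. In HNKO mice 1 and 2 it was at 670 and 680 CPM against 437 and 602 CPM, and in HNKO mouse 3 at 325 against 308 CPM. The smallest difference was thus in HNKO mouse 3, and that mouse lay below all others in both parts. The periportal levels of WT mouse 2 and HNKO mouse 2 lay above the pericentral level of WT mouse 3, so that the parts overlapped between mice. In HNKO mice 2 and 3 the middle part was the highest, at 738 and 326 CPM. It lay between the outer parts in the WT mice and HNKO mouse 1.

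Pdk4 was higher in pericentral nuclei in 6 of 6 mice, by a log2 of 1.54 (SE 0.31, 95% CI 0.89 to 2.20, edgeR FDR 0.00147). The UMIs were few. WT mice 1, 2 and 3 had 15, 24 and 8 Pdk4 UMIs in pericentral and 4, 15 and 7 in periportal nuclei, and HNKO mice 1, 2 and 3 had 107, 27 and 24 against 17, 33 and 8. HNKO mouse 1 reached 49.9 CPM in pericentral nuclei against 6.15 to 19.6 CPM in the other mice, whereas its periportal level of 7.10 CPM lay within their range of 2.90 to 14.2 CPM. HNKO mouse 2, with more periportal than pericentral UMIs, had nearly equal levels at 15.1 and 14.2 CPM. The middle part of HNKO mouse 2 was its highest at 19.2 CPM, whereas in the other mice the middle part lay between the outer parts. Without HNKO mouse 1 the log2 difference was 1.01 (edgeR FDR 0.0177).

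Vnn1 and Ehhadh had log2 differences of 0.55 (95% CI 0.10 to 0.99, edgeR FDR 0.079) and 0.34 (95% CI 0.05 to 0.62, edgeR FDR 0.093) toward pericentral nuclei. Vnn1 was higher there in 6 of 6 mice and Ehhadh in 4 of 6. The Vnn1 UMIs were few, with 3 in either part of HNKO mouse 1 (log2 0.16). WT mouse 1 had 11 pericentral and 13 periportal Vnn1 UMIs (log2 0.02). In both mice Vnn1 was higher only after scaling to the total UMIs of the part. When nuclei were cut into 2 parts in place of 3, Vnn1 passed (log2 0.59, edgeR FDR 0.026). Acadm (log2 0.16, 95% CI -0.05 to 0.36, edgeR FDR 0.29), Hadha (0.13, 95% CI -0.12 to 0.37, edgeR FDR 0.50) and Cpt2 (0.09, 95% CI -0.26 to 0.45, edgeR FDR 0.76) were higher in 3 of 6 mice each. The intervals of these 3 genes reached at most 0.45, less than the difference of Ppara. Ehhadh passed without HNKO mouse 2 (log2 0.44, edgeR FDR 0.047). Depth differed between the parts, since the median UMI count per nucleus of a mouse was 3132 to 4940 in pericentral and 4245 to 6578 in periportal nuclei. After thinning every nucleus to 2000 UMIs, the log2 differences of Ppara and Cpt1a were 0.76 and 0.34 (edgeR FDR 5.30e-10 and 0.00458). In thinned nuclei that of Ehhadh was 0.10 (edgeR FDR 0.83). Pdk4 had too few UMIs after thinning to be tested.

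**Figure D2:**
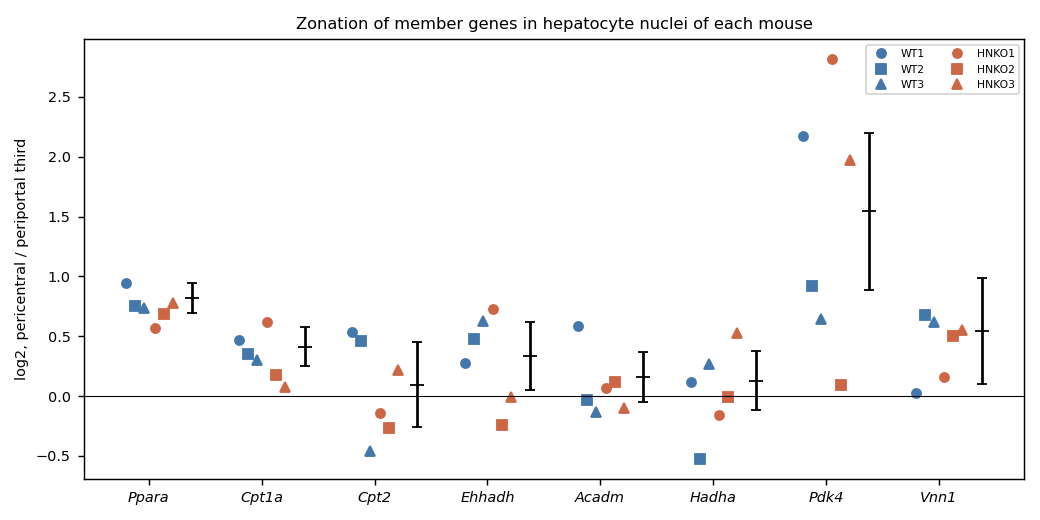
Log2 ratio of pericentral to periportal level of each member, with 1 point per mouse (WT in blue, HNKO in orange). Black bars give the fitted log2 difference and its 95% CI. All 6 mice lie above 0 for Ppara, Cpt1a, Pdk4 and Vnn1, where Pdk4 spans 0.09 to 2.81 and Vnn1 is at 0.02 in WT mouse 1.

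In the wider list, 68 genes were tested along the lobule, of which 25 were higher in pericentral and 6 higher in periportal nuclei (edgeR). The counts by role are a description, with no test between roles. Of the 16 genes listed under mitochondrial beta-oxidation 1 was called, Eci2, at a log2 of 0.85, and the remaining 15 lay between -0.10 and 0.30. The isomerase encoded by Eci2 is also peroxisomal, so this call is not one of a purely mitochondrial enzyme. Eci1, the mitochondrial isomerase, was not called (0.23, edgeR FDR 0.58). Of 13 peroxisomal genes 6 were higher in pericentral nuclei, among them Acaa1a (1.04) and Acaa1b (0.92), which encode peroxisomal thiolases, and Scp2 (0.66). Abcd2, a peroxisomal transporter, was higher in periportal nuclei at -0.51. All 3 omega-hydroxylase genes tested were higher in pericentral nuclei, Cyp4a14 at 1.70, Cyp4a10 at 1.46 and Cyp4a32 at 1.14. In the carnitine shuttle Crot (0.98) and Slc22a5 (0.77) were called beside Cpt1a.

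The regulators were split. Ppara, its partner Rxra (0.68), Pparg (1.16) and Creb3l3 (0.24), a transcription factor of the fasted liver, were higher in pericentral nuclei. The coactivators Ppargc1b (-0.82), Ppargc1a (-0.36) and Lpin1 (-0.28) were higher in periportal nuclei. For uptake and activation, Acsl1 (0.56) and Slc27a2 (0.45) were higher in pericentral nuclei, and Cd36 (-0.70), the fatty acid translocase, and Acsl5 (-0.31) in periportal nuclei. Of 4 ketogenic genes Bdh1 was called (0.56). Of the other targets, Slc25a42 (0.60), Plin2 (0.40), Acot3 (1.06) and Mgll (0.24) were called beside Pdk4. The median over the list was 0.22 and that over all genes tested -0.01.

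**Figure D3:**
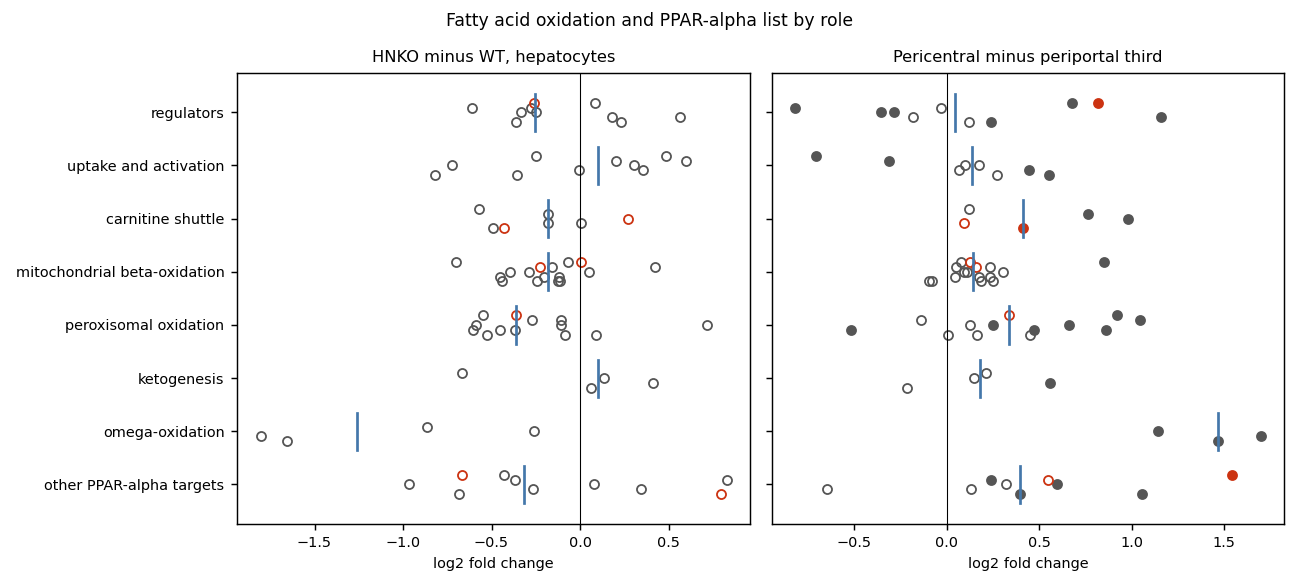
Log2 fold change of each gene of the wider list by role, for HNKO minus WT hepatocytes (left) and for pericentral minus periportal nuclei (right), with members in red, an edgeR FDR under 0.05 as filled points and the median of a role as a blue line. No point is filled on the left, and 31 are filled on the right, 1 of them (Eci2) in the role listed as mitochondrial beta-oxidation.

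Whether this zonation differed by genotype was asked with an interaction term. Of all genes, 0.0116% were called (1 of 8645), and no member was. No member had an unadjusted p under 0.05 with edgeR or DESeq2, where 491 of the 8645 genes had with edgeR and 115 with DESeq2. At such shares, finding none among 8 does not set the members apart from other genes. The difference of the log2 values, HNKO minus WT, was -0.16 for Ppara (95% CI -0.40 to 0.08), -0.10 for Cpt1a (95% CI -0.43 to 0.22) and 0.45 for Pdk4 (95% CI -0.99 to 1.89). The smallest FDR of a member was 0.93 (edgeR, Ppara). The value of Pdk4 turned to -0.43 without HNKO mouse 1 and was 1.37 without HNKO mouse 2. The intervals leave room for a change of zonation by more than its own size in Pdk4, but not in Ppara.

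Across the 13 hepatocyte clusters, levels are given as a description, since the clusters were made by the authors from the expression of the same nuclei and 9 clusters came by over 90% from 1 mouse. Ppara was at 3828 CPM in the cluster Central 1 and at 4041 CPM in Central HNKO 2, and at 1660, 2037 and 2049 CPM in the clusters Periportal 3, 1 and 2. The third of the Central clusters, Central HNKO 1, was at 2388 CPM. That cluster came by 98.9% from HNKO mouse 1 and was above the main cluster of the same mouse, HNKO 1, at 1807 CPM. The counting intervals (95% Poisson, for counting error only) of 2288 to 2491 and 1772 to 1843 CPM did not meet. HNKO 2 and HNKO 3, both almost wholly from HNKO mouse 3, were at 1839 and 3148 CPM.

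Cpt1a ranged from 298 CPM in HNKO 2 to 767 CPM in Hepatocytes 1, and the 3 clusters of HNKO mouse 3 (HNKO 2, HNKO 3 and Central HNKO 2) were the 3 lowest at 298, 340 and 398 CPM. Ehhadh and Hadha were not low in these clusters, with Ehhadh at 58.8, 68.6 and 64.8 CPM against 19.7 CPM in HNKO 1. Hadha was at 67.9, 84.2 and 118 CPM there and at 37.1 CPM in HNKO 1. Acadm was the flattest, between 53.2 CPM in Central HNKO 2 and 123 CPM in Central 1, with 11 of 13 clusters between 74.6 and 101 CPM.

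Pdk4 was at 88.0 CPM in Central HNKO 1 (79 UMIs, 95% Poisson interval 69.7 to 110) and next highest at 22.1 CPM in Central 1 (95% Poisson interval 14.3 to 32.6). It was lowest at 3.12 CPM in Periportal 2, from 6 UMIs. Vnn1 had its 2 lowest levels in the clusters of HNKO mouse 1, at 1.11 CPM in Central HNKO 1 from 1 UMI and 1.27 CPM in HNKO 1 from 7 UMIs. It was highest in Central HNKO 2 at 20.8 CPM from 9 UMIs, whose interval of 9.53 to 39.5 CPM took in the levels of HNKO 3, Hepatocytes 1, Hepatocytes 4, Periportal 1 and Central 1. The Cpt2 intervals of most clusters overlapped, from 11.5 CPM in Central 1 to 28.3 CPM in HNKO 3.

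**Figure D4:**
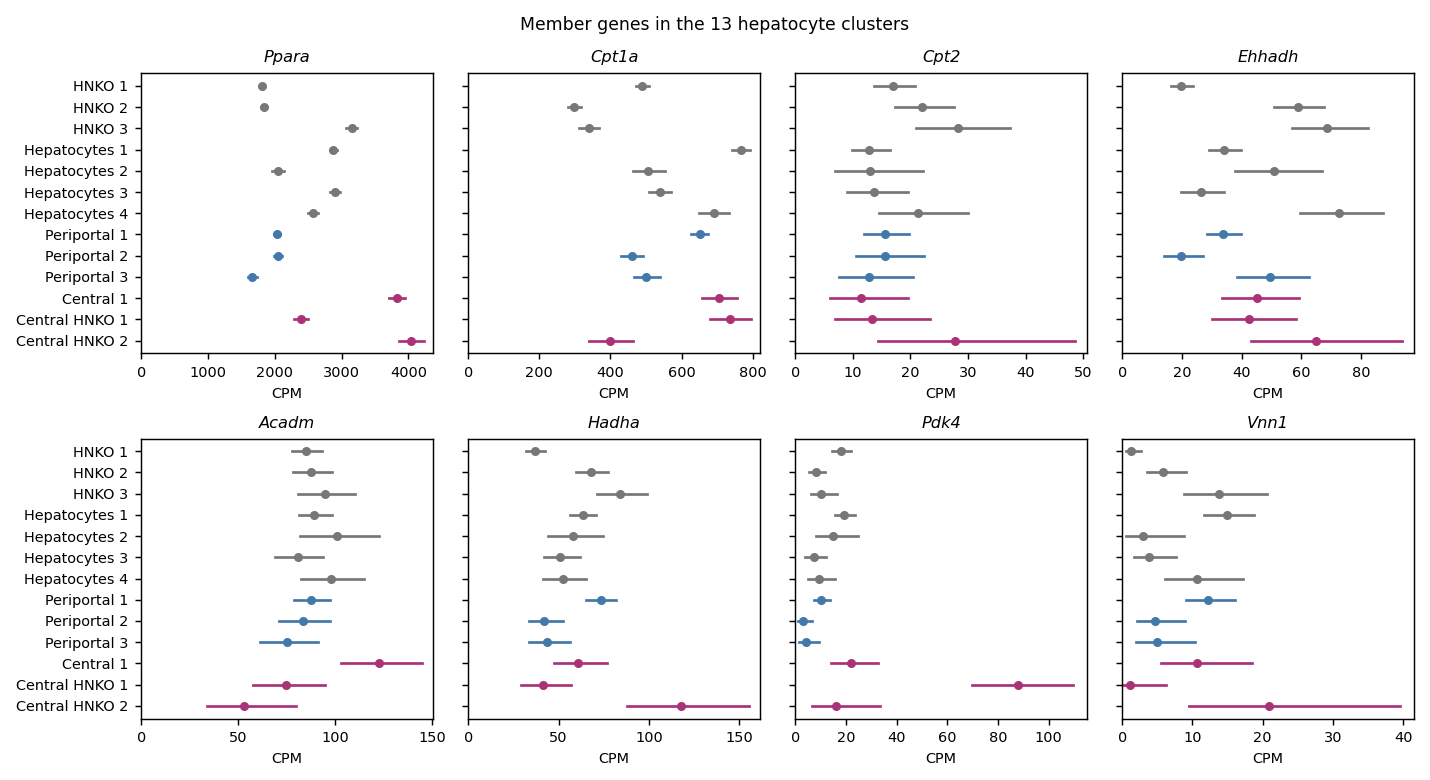
Level of each member in the 13 hepatocyte clusters, in CPM of the summed UMIs, with 95% Poisson intervals; clusters named Central are in purple, Periportal in blue. Pdk4 reaches 88.0 CPM in Central HNKO 1, and Ppara is lowest in Periportal 3 at 1660 CPM.

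As a description over these 13 clusters, which share mice, the genes whose log2(CPM + 1) most resembled that of Ppara were Pon1 (Pearson r 0.94), Lmbr1l (0.94) and Aldh3a2 (0.93), among 5329 genes with a mean of at least 20 CPM. For Pdk4 they were Hip1r (0.92), Scp2 (0.91) and Lrp5 (0.91). The r of Ppara with the other members was 0.61 for Hadha, 0.60 for Vnn1, 0.32 for Ehhadh and 0.31 for Pdk4. It was 0.24 for Cpt2, 0.14 for Cpt1a and -0.04 for Acadm. The r values above were picked as the highest among 5329 genes and are not comparable with these. The highest r between 2 members was 0.81 for Hadha and Vnn1, and the lowest was -0.67 for Cpt1a and Cpt2.

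The members were next compared between hepatocytes and the other nuclei of the liver, with mouse as a block. In these sums, hepatocyte RNA was present in every other type. In endothelial nuclei the 6 hepatocyte markers stood at 26.4% to 35.9% of their hepatocyte level, summed over the 6 mice. For a member at or below this share, hepatocyte RNA and expression by the other cells cannot be told apart, and neither was tested. Median UMIs per nucleus were 2444 to 3260 in endothelial and 3572 to 5786 in hepatocyte nuclei of a mouse.

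Against endothelial nuclei, 30.2% of 9656 genes were called higher in hepatocytes (edgeR), and 5 of the 8 members were. Ppara stood at a log2 difference of 2.28 (SE 0.16, edgeR FDR 2.98e-18) and Cpt1a at 2.25 (SE 0.18, edgeR FDR 2.14e-16), within the range of 1.83 to 2.38 of the 6 hepatocyte markers. Endothelial Ppara was at 449, 1004 and 685 CPM in WT mice 1, 2 and 3 and 589, 635 and 456 CPM in HNKO mice 1, 2 and 3, which was 26.1% of the hepatocyte level (95% Poisson interval 24.1 to 28.4). Endothelial Cpt1a was at 26.8% (22.5 to 31.6). The share of Ppara lay below those of all 6 markers, and that of Cpt1a lay within their range.

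Ehhadh (log2 1.62, SE 0.39, edgeR FDR 3.58e-04), Acadm (1.46, SE 0.27, edgeR FDR 8.69e-06) and Hadha (1.00, SE 0.30, edgeR FDR 0.00401) were also higher in hepatocytes, by less than the smallest marker difference. In endothelial nuclei Hadha was at 62.2% of its hepatocyte level (95% Poisson interval 43.1 to 86.9, 34 UMIs), above the shares of all 6 markers. Acadm was at 43.3% (30.4 to 60.0, 36 UMIs) and Ehhadh at 37.9% (20.7 to 63.7, 14 UMIs), with intervals that took in marker shares. Cpt2 (log2 0.96, 95% CI -0.07 to 1.99, edgeR FDR 0.12), Pdk4 (0.35, 95% CI -0.63 to 1.33, edgeR FDR 0.58) and Vnn1 (0.31, 95% CI -0.96 to 1.59, edgeR FDR 0.72) did not pass, with 10, 14 and 7 endothelial UMIs. Hadha did not pass with library size as the sole scaling (log2 0.68, edgeR FDR 0.061).

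Against stellate nuclei, 25.0% of 9445 genes were higher in hepatocytes (edgeR), and 4 of 7 members tested were. Ppara was at a log2 of 3.66 (SE 0.35, edgeR FDR 8.99e-11), Cpt1a at 2.70 (SE 0.30, edgeR FDR 2.35e-09), Acadm at 1.88 (SE 0.37, edgeR FDR 6.89e-05) and Ehhadh at 1.85 (SE 0.53, edgeR FDR 0.00488). The 6 markers lay between 2.49 and 3.76. Hadha was at 0.72 (edgeR FDR 0.089; 0.049 with DESeq2 and 0.039 with RLE scaling) and stood in stellate nuclei at 67.6% of its hepatocyte level (95% Poisson interval 44.6 to 98.4, 27 UMIs), where the markers were at 9.44% to 21.4%. Cpt2 (1.16, edgeR FDR 0.15) and Pdk4 (0.17, edgeR FDR 0.86) did not pass. Pdk4 was at 87.4% (40.0 to 166) from 9 UMIs in all, but the mice differed, with 452%, 219% and 405% in WT mice 1, 2 and 3 from 3, 2 and 2 UMIs and 20.9%, 42.8% and 0% in HNKO mice 1, 2 and 3 from 1, 1 and 0 UMIs. Vnn1 had 0 of 690616 stellate UMIs, which allows up to 4.34 CPM by a floor of 3 counts over the 6 mice, against 7.92 CPM in hepatocytes.

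In the types with fewer nuclei the levels are a description. The CD45+ and cholangiocyte types each join clusters that differed. Summed over all mice, Ppara was at 595, 1390 and 1544 CPM in the clusters CD45+ 1, 2 and 3. It was at 355 CPM in Cholangiocyte 1 and at 20.4 CPM, from 3 UMIs, in Cholangiocyte 2. In Kupffer nuclei, which reached 10 nuclei in the 3 HNKO mice only, Ppara was at 4.71% of the hepatocyte level (95% Poisson interval 3.05 to 6.96), below the 8.28% to 24.7% of the markers. Hadha was at 63.7% (29.1 to 121, 9 UMIs) and Cpt2 at 160% (64.2 to 329, 7 UMIs), both above the markers. Pdk4 and Vnn1 had no UMI there, which allows up to 12.8 CPM by the floor of 3 counts. In CD45+ nuclei of 5 mice Ppara and Cpt1a were at 40.7% and 37.3%, within the marker range of 35.0% to 54.9%, and Hadha was at 47.8%. In cholangiocyte nuclei of the 3 HNKO mice Ppara was at 12.5% and Cpt1a at 20.8%, within the marker range of 4.72% to 29.6%. Acadm was at 63.7% (44.6 to 88.2, 36 UMIs), Hadha at 55.5% (34.8 to 84.0, 22 UMIs) and Ehhadh at 48.4% (25.0 to 84.5, 12 UMIs). The intervals of Acadm and Hadha lay above the range, but they cover counting error only. In HNKO mice 1, 2 and 3 Acadm was at 68.7%, 28.3% and 64.4% and Hadha at 72.0%, 35.3% and 50.7%. The highest marker of these mice was at 48.3%, 73.1% and 28.9%, so that HNKO mouse 2, with 1 UMI of each gene, did not lie above its markers.

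**Figure D5:**
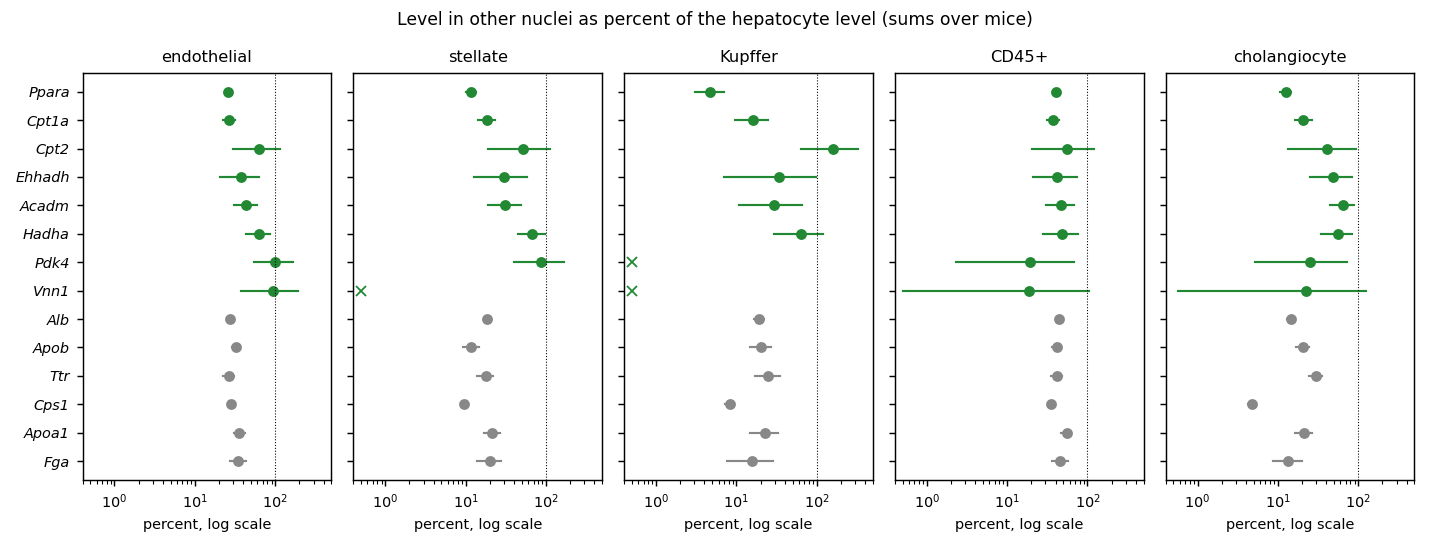
Level of the members (green) and of 6 hepatocyte markers (gray) in 5 other types of nuclei as percent of the hepatocyte level in the same mice, on a log axis, with 95% Poisson intervals and a cross for 0 UMIs. Ppara and Cpt1a lie beside the markers in endothelial nuclei at 26.1% and 26.8%, and Hadha lies above them at 62.2%.

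Whether the genotype effect differed between hepatocytes and endothelial nuclei was tested with an interaction term, for which 0.0725% of 9656 genes were called (7 genes, edgeR). No member was called. Acadm was the one member with an unadjusted p under 0.05 (edgeR p 0.00739, log2 difference 1.56, SE 0.58, FDR 0.58), where the share of all genes with such a p was 6.05%. In endothelial nuclei Acadm was at 67.4, 77.2 and 83.3 CPM in WT mice 1, 2 and 3 and at 18.9, 27.2 and 19.3 CPM in HNKO mice 1, 2 and 3, from 6, 7 and 9 against 6, 5 and 3 UMIs. The genotypes did not overlap, as in 10.6% of all genes in these endothelial sums. The HNKO values were 22.0% to 31.0% of the hepatocyte level of the same mouse, at or below the median marker share of 33.8% to 39.9% in HNKO mice, whereas the WT values were 71.3% to 99.3% against median marker shares of 18.0% to 34.4%. Of the other members, Pdk4 was at a log2 difference of 1.71 (95% CI -0.31 to 3.74, edgeR FDR 0.85), and Ppara was at -0.03 (95% CI -0.61 to 0.56, edgeR FDR 1.00). The hepatocyte markers themselves were all below 0 in this comparison, between -1.22 and -0.25. None passed, but Cps1 was close (edgeR FDR 0.054), and Fga and Apoa1 had unadjusted edgeR p of 0.012 and 0.027. The part of these markers in the values above was not tested.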

How the data were processed

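Nuclei of 6 livers were sorted, pooled and sequenced as RNA and hashtag libraries, and each mouse was told apart by its hashtag. Per the submitters' processing notes, Cell Ranger 5.0.1, alevin and GRCm38 were used, and the study mapped reads with alevin. The authors deposited estimated counts (UMIs per gene and nucleus, intronic reads included, 10.07% of the values above 0 not whole), a table of nuclei with hashtag counts and cluster names, and a normalized matrix that was not used. Cell types were the deposited cluster names. Doublets were treated by the authors' hashtag calls only, and no doublet caller was run.

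UMIs were summed per mouse and type where at least 10 nuclei were present, rounded, and tested with edgeR 4.0.16 in R 4.3.3 (quasi-likelihood test, filterByExpr with a minimum count of 10, TMM scaling, two-sided, Benjamini-Hochberg FDR over all genes tested, threshold 0.05). Mouse was a block in comparisons between types or between parts of the lobule. Hepatocyte sums held 3524497 to 6635290 UMIs. Intervals on summed UMIs are exact 95% Poisson intervals and, like the floor of 3 counts, cover counting error only. DESeq2 1.42.0, other scalings, no filter, each mouse left out, no mouse block, other cuts of the zonation score and nuclei thinned to 2000 UMIs were alternatives. In simulated counts with 200 genes changed by a log2 of 2, the fits recovered 91% (genotype, 11592 genes), 78% (endothelial, 9013), 67% (stellate, 8835), 32% (type by genotype, 9045), 100% (lobule, 8546) and 89.5% (lobule by genotype, 8556). The changed genes were drawn from all genes tested. The largest difference of a member between genotypes was a log2 of 0.79 (Pdk4), so the 91% does not give the power for differences of that size. Tables and figures were made with Python 3.11.15.

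All 8 members are named throughout. From each role of the wider list, the 2 other genes with the largest absolute log2 fold change between genotypes are named, with any list gene past a threshold. Some genes that this rule names are not reported here. For likeness, the 3 genes with the highest r are named for Ppara and Pdk4. The members, lists and tests were chosen with earlier results of these data known.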

Additional observations from a re-analysis of the deposited data

Results flagged for a closer look

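The pericentral to periportal log2 ratio of Acadm in WT mouse 1 was 0.58 and stood apart from the other 5 mice by Dixon's test (critical value 0.625 for 6 samples). The genes tested in this way were the 8 members, of which 1 was set apart, and chance does this in about 1 of 20 groups.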

How the results depend on the processing

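No paired analysis was possible because the mouse numbers are names given to the hashtags and pair no WT with an HNKO mouse, and the pool of each nucleus is not in the table used here. For the same reason, sums from each pool alone were not run. Scaling by library size alone was chosen after seeing the data. No member was called between genotypes under any alternative run. Over all genes, the 0 calls between genotypes became 21 with DESeq2, 35 without a count filter and 0 to 32 with each mouse left out, the highest without HNKO mouse 2. The list median of -0.25 was -0.064 with library size alone and -0.30 to -0.13 with each mouse left out. Against stellate nuclei 7 members were called without a filter, in place of 4, and the share over all genes in that run is not given here. With each mouse left out 4 to 6 members were called, beside 3512 to 4025 of all genes in either direction. The type by genotype calls, 7 over all genes, were 2 with DESeq2, 11 with library size alone, 0 without the mouse block and 3 to 11 with each mouse left out. The zonation calls, 1812 over all genes, were 1150 with DESeq2 and 864 in thinned nuclei. The 1 call of zonation by genotype became 2 with 2 parts, 26 without a filter, 0 in thinned nuclei and 0 to 6 with each mouse left out. The cause was not tested.

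Signs turned for small differences. Between genotypes, Hadha was -0.0093 with DESeq2, -0.0093 with RLE scaling (the scaling of DESeq2) and -0.017 without the Central clusters, and Ehhadh was 0.022 as a mean over nuclei. With library size alone Vnn1 was -0.00056 against endothelial and Pdk4 -0.00012 against stellate nuclei. For type by genotype, Ppara was 0.053 with DESeq2, 0.056 with RLE, 0.19 with library size alone and 0.013 without the mouse block. Cpt2 zonation was -0.00018 with 2 parts. For zonation by genotype, Vnn1 was 0.11 with 2 parts and 0.031 with library size alone, and Ehhadh 0.19 in thinned nuclei. With each mouse left out, the genotype effect spanned -0.16 to 0.20 for Hadha, -0.66 to 0.22 for Ehhadh and -0.045 to 0.61 for Bdh1, and Pdk4 spanned -0.079 to 0.75 against endothelial and -0.38 to 0.82 against stellate nuclei. Type by genotype spanned -0.30 to 0.20 for Ppara, -1.04 to 1.48 for Cpt2, -7.30 to 0.13 for Vnn1 and -1.18 to 0.054 for Ehhadh. Zonation by genotype spanned -0.43 to 1.37 for Pdk4, -0.21 to 0.19 for Vnn1, -0.29 to 0.028 for Cpt1a, -0.072 to 0.33 for Hadha, -0.58 to 0.012 for Cpt2 and -0.26 to 0.083 for Acadm. Depth limits Cpt2, Pdk4 and Vnn1, with 9 to 184 UMIs per mouse in hepatocytes.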
